A study of Mus musculus with 9 samples.

Results

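Potassium channel genes were taken from the count table as the gene symbols that begin with Kcn, a family letter or letters and a number, without Kcnj8, Kcnj10, Kcnj13 and Kcne2. Of 20731 genes in the table, 89 had such a symbol, and the 76 with at least 10 counts in at least 3 of the 9 libraries are described here. All 76 also had enough counts for the test across genes, which covered 14746 genes. The RNA came from C57BL/6J male mice aged 8 to 10 weeks, collected on day 2 after the induction of cerebral venous sinus thrombosis (CVST), with 3 libraries in each of 3 groups. Every mouse had thrombosis of the superior sagittal sinus, and the CVST group had neither ligation nor 4-PBA. The methods describe solvent for control mice, a group that is not among these libraries. The CVST+Ligation group also had its deep cervical lymph nodes ligated, on both sides. The 4-PBA group had thrombosis and ligation, and received 4-phenylbutyric acid, an inhibitor of endoplasmic reticulum stress, at 100 mg/kg. The methods place this dose 30 min before modelling, whereas the description of the series places it after ligation. No sham-operated mouse is among these libraries, so each comparison is between groups that all had thrombosis. As tissue, the labels give brain and the description of the series gives cortex.

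Potassium channels let potassium ions leave or enter a cell along their gradient, and in neurons they set the resting potential, end the action potential and limit how fast a cell can fire. Voltage-gated (Kv) channels open on depolarization, inward rectifiers and leak channels hold the resting potential, and calcium-activated and sodium-activated channels tie the current to the ions that enter during activity. Auxiliary subunits bind the pore-forming proteins and change how many reach the membrane or how fast they inactivate, and the mix of subunits differs between brain regions and cell types.

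The CVST libraries held 24166917, 22574739 and 19392081 counted reads, the CVST+Ligation libraries 24157584, 18835705 and 23358349, and the 4-PBA libraries 18100739, 23623769 and 25091498. Levels within a gene are given as CPM, counts scaled to library size with TMM factors. At this depth 3 counts, taken as the floor, equal 0.114 to 0.163 CPM, which covers counting error only. Libraries of a group correlated with r between 0.946 and 0.982 over the log2 CPM of all genes tested. CVST+Ligation replicate 2 stood apart: its correlations with the other libraries of its group were 0.946 and 0.947, while those correlated at 0.982. CVST replicate 3 had 0.960 and 0.960 against 0.975 between the other CVST libraries, and 4-PBA replicate 3 had 0.962 and 0.959 against 0.972 between the other 4-PBA libraries. Among the 76 channel genes, CVST+Ligation replicate 2 held the highest level of all 9 libraries in 16 (21.1%) and the lowest in 17 (22.4%). CVST replicate 3 held the highest in 4 (5.26%) and the lowest in 20 (26.3%). Over all genes tested, CVST+Ligation replicate 2 was highest in 17.3% and lowest in 16.6%. For CVST replicate 3 these shares were 21.3% and 20.4%. Counts below are therefore given with all libraries and also without these libraries. Nothing in the labels says how the animals were housed or processed together, so the p-values measure the spread between these libraries.

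Markers of brain regions differed between the libraries, and their levels stand beside the channel genes here because channel subunits are themselves regional. The 8 markers of cortical excitatory neurons summed to 2381, 2196 and 2495 CPM in the CVST group, 1822, 623 and 1823 in the CVST+Ligation group and 709, 724 and 1008 in the 4-PBA group. This sum was highest in the CVST libraries, and CVST+Ligation replicate 2 lay below every 4-PBA library. Of the 8, 4 were lower after ligation, 2 were lower for 4-PBA against CVST+Ligation and 6 were lower for 4-PBA against CVST. The most abundant gene, Slc17a7, which encodes a vesicular glutamate transporter, had 1761, 1419.8 and 1974 CPM in the CVST group, 1433, 419 and 1406 in the CVST+Ligation group and 519.8, 567 and 732 in the 4-PBA group. The 8 markers of striatal projection neurons summed to 1772, 1333 and 1053 CPM in the CVST group, 195, 276 and 515 in the CVST+Ligation group and 501, 1281 and 254 in the 4-PBA group, led by Penk. All 8 were lower in the CVST+Ligation than in the CVST group at an unadjusted p below 0.05, 2 were lower for 4-PBA against CVST, and 1 was higher for 4-PBA against CVST+Ligation. For thalamic neurons the 8 markers summed to 83.5, 85.8 and 89.0 CPM in the CVST group, 172, 343 and 299 in the CVST+Ligation group and 564, 348 and 666 in the 4-PBA group, led by Prkcd, and 8 of 8 were higher in the 4-PBA than in the CVST group, 5 after ligation and 4 for 4-PBA against CVST+Ligation. Here the CVST libraries were the lowest and did not overlap either of the other groups. The 8 midbrain dopamine markers summed to 50.1, 68.5 and 132 CPM in the CVST group, 256, 225 and 229 in the CVST+Ligation group and 235, 234 and 297 in the 4-PBA group, led by Ddc, and 7 of 8 were higher in each of the other groups than in CVST. Pitx3, which defines these neurons, was at 0 counts in every CVST library and in CVST+Ligation replicate 2. Hypothalamic markers summed to 8.03, 3.15 and 7.43 CPM in the CVST group, 3.84, 4.74 and 30.4 in the CVST+Ligation group and 281, 488 and 492 in the 4-PBA group, led by Pmch. The 4-PBA libraries stood above all others in this sum, and 6 of the 7 markers tested were higher there than in the CVST+Ligation group and 7 of 7 than in the CVST group, while 2 were higher and 1 lower after ligation. Cerebellar markers summed to 38.5, 40.4 and 41.3 CPM in the CVST group, 45.2, 1190.0 and 82.2 in the CVST+Ligation group and 67.2, 66.7 and 85.2 in the 4-PBA group, led by Car8, and CVST+Ligation replicate 2 stood far above the other 8 libraries. All 6 cerebellar markers tested were higher after ligation, 3 were lower for 4-PBA against CVST+Ligation and 0 passed for 4-PBA against CVST at the same unadjusted level in edgeR. Gabra6, the cerebellar granule cell receptor subunit, was at 0 in 7 of the 9 libraries, among them every CVST and every 4-PBA library.

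The 6 general neuronal markers summed to 4365, 4582 and 3613 CPM in the CVST group, 3854, 3608 and 4046 in the CVST+Ligation group and 3244, 3479.9 and 2899.5 in the 4-PBA group, led by Snap25, and 2 of 6 were lower in every comparison. The 6 oligodendrocyte markers summed to 2511, 2983 and 3303 CPM in the CVST group, 2557, 5752 and 4136 in the CVST+Ligation group and 7214, 5037 and 4443 in the 4-PBA group, led by Mbp, and 5 of 6 were higher in the 4-PBA than in the CVST group and 1 after ligation. Choroid plexus markers, led by Ttr, summed to 833, 788 and 979 CPM in the CVST group, 98.2, 16.5 and 858 in the CVST+Ligation group and 3123, 667 and 447 in the 4-PBA group, and had their lowest level in CVST+Ligation replicate 2 and their highest in 4-PBA replicate 1, with 1 of 6 higher after ligation and 3 of 6 higher in each 4-PBA comparison. For the other lists the numbers of markers higher and lower, in the order CVST+Ligation against CVST, 4-PBA against CVST+Ligation and 4-PBA against CVST, were as follows. Of 6 inhibitory interneuron markers, 1 was lower in each comparison. Of 8 hippocampal markers, 2, 0 and 1 were higher and 0 were lower, and of 6 astrocyte markers 2, 0 and 1 were higher. Of 6 microglial markers 2, 0 and 1 were lower, and of 5 red blood cell markers 2, 0 and 0 were higher. None of the 6 markers of endothelial cells and pericytes passed in any comparison by edgeR. No gene was in more than 1 list. The part of these markers in the channel results was not tested. In bulk RNA a different piece of tissue, fewer cells of a type and less RNA per cell cannot be told apart.

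**Figure D1:**
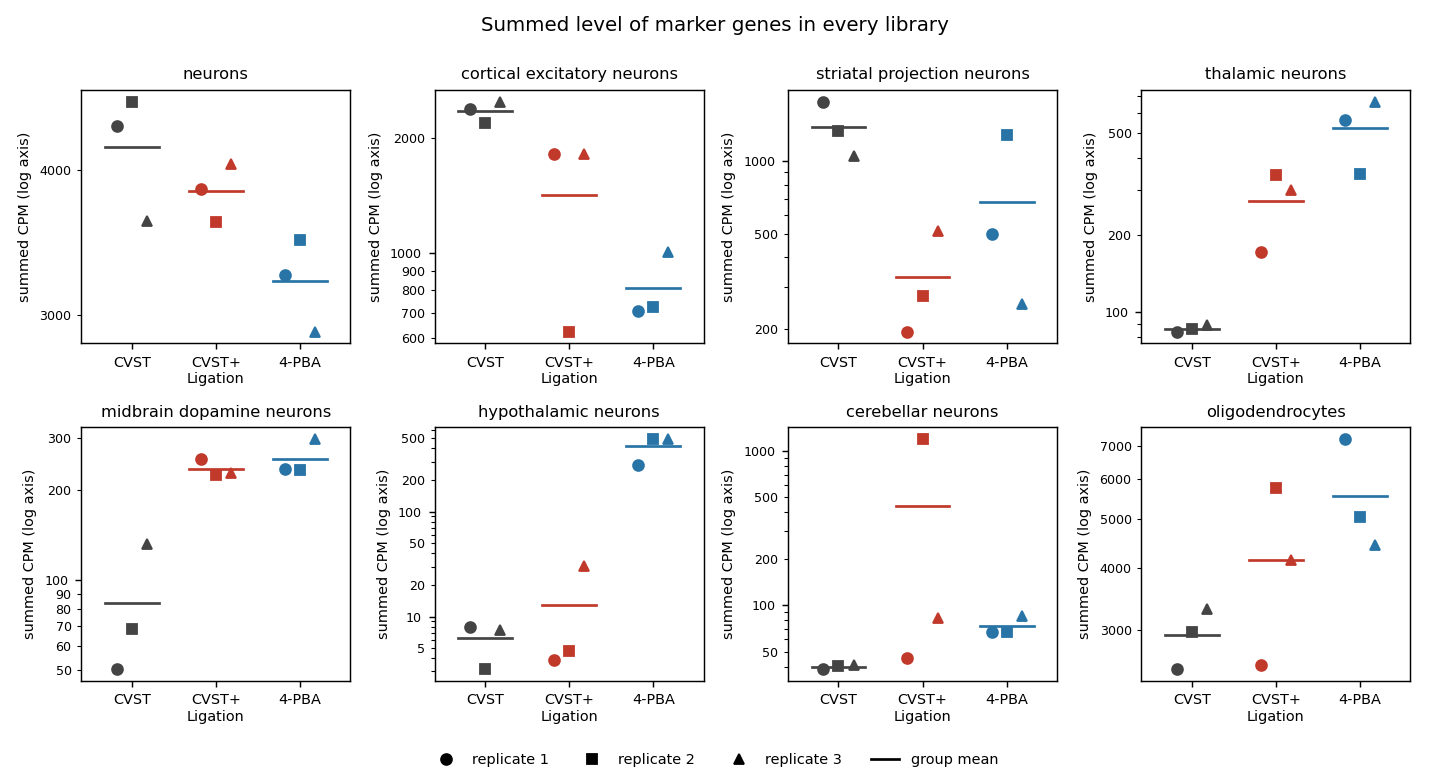
Summed CPM (log axis) of marker genes in every library, by group, with a symbol for each replicate and a line at the group mean. The hypothalamic sum is highest in the 4-PBA libraries, the striatal sum is highest in the CVST libraries on average, and the cerebellar sum is highest in CVST+Ligation replicate 2 at 1190.0 CPM.

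Levels of different genes are compared per length, as FPKM, the mean over all 9 libraries. They ran from 0.499 FPKM for Kcnh8 to 191 FPKM for Kcnab2, with a median of 10.8 FPKM, and 40 of the 76 genes had at least 10 FPKM. Within their roles the highest means were those of Kcnc1 (84.5 FPKM) among Kv1 to Kv4, Kcnh3 (26.7 FPKM) among Kv10 to Kv12 and Kcnf1 (30.8 FPKM) among the silent Kv subunits. They were also those of Kcnab2 among the auxiliary subunits, Kcnj4 (67.2 FPKM) among the inward rectifiers, Kcnk1 (84.8 FPKM) among the 2-pore leak channels, Kcnmb4 (67.9 FPKM) among the calcium-activated channels and Kcnt1 (20.5 FPKM) among the sodium-activated channels. The 9 auxiliary genes together had 645, 612 and 486 FPKM in the CVST group, 528, 484 and 506 in the CVST+Ligation group and 438, 438 and 443 in the 4-PBA group. Every CVST library but replicate 3 was above all others in this sum, and the 4-PBA libraries were the lowest. The 15 Kv1 to Kv4 genes together had 334, 339 and 184 FPKM in the CVST group, 321, 531 and 286 in the CVST+Ligation group and 377, 298 and 312 in the 4-PBA group, with the lowest and the highest sums in the libraries that stood apart, CVST replicate 3 and CVST+Ligation replicate 2.

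Channel genes varied more between libraries than genes in general. Among the 73 with a mean of at least 1 CPM the median ratio of the highest to the lowest library was 3.32, and it was 1.89 over the 13705 genes tested with such a mean. Large ratios were those of Kcnj5 (19.4, or 12.4 without CVST replicate 1), Kcng4 (19.1), Kcng1 (15.9) and Kcnh3 (11.9) among the genes named here, a comparison of levels in CPM within each gene. For Kcng4 the highest library was CVST+Ligation replicate 2, and for Kcng1 and Kcnh3 it was the lowest. Without that library the ratios were 5.38, 4.79 and 3.13. At the edge of the count minimum, Kcnj5, Kcnj14 and Kcnn4 had 10 counts in 7 libraries and Kcne4, Kcnk6 and Kcnmb1 in 8, while the other 70 had them in all 9. Just outside were Kcng3, with 10 counts in 1 library (11 counts in CVST replicate 1), Kcnk7 (10 counts in CVST replicate 1), Kcne3 (17 in CVST+Ligation replicate 3), Kcnj15 (16 in 4-PBA replicate 3) and Kcnk18 (33 in 4-PBA replicate 2 and 0 elsewhere). Kcna7 and Kcnj1 had 0 counts in every library.

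The comparison of CVST+Ligation with CVST asks what lymph node ligation adds to thrombosis. At an unadjusted p below 0.05, 17 of the 76 channel genes (22.4%) differed, against 9.64% of all genes tested. Of these, 6 were higher after ligation (background 5.47%) and 11 lower (background 4.18%). The higher genes were Kcnc4, Kcng4, Kcnd3, Kcnh2, Kcnj5 and Kcnj16, and the lower genes were led by the leak channels Kcnk4 and Kcnk2 and the Kv12 subunit Kcnh4. The groups did not overlap in 13 channel genes, 3 higher and 10 lower (background 13.8%, with 6.61% higher and 7.21% lower). The median log2 fold change of the 76 was -0.02, beside 0.00 for all genes tested, and 37 of the 76 values were above 0 (all genes 50.3%). The median was -0.24 without CVST+Ligation replicate 2 and CVST replicate 3 and -0.22 without the farthest library of each group. Leaving out 1 library turned its sign for CVST replicate 2 (0.05) and CVST replicate 1 (0.007). It stayed below 0 without each of the other libraries of these groups. With p-values adjusted over the 14746 genes by Benjamini-Hochberg, 0 of the 76 passed 0.05 in edgeR (background 0.0203%), and DESeq2 passed 1, Kcnh4 (background 1.5%). Without CVST replicate 2 the count at the unadjusted level was 11, with 5 higher and 6 lower, against 8.52% of all genes. Without CVST replicate 1 there were 5 higher and 7 lower (background 8.42%), and without CVST replicate 3 there were 4 higher and 15 lower (background 10.2%). Without CVST+Ligation replicate 2 and CVST replicate 3 it was 24 (background 12.4%), with 17 lower, and 11 of the 24 were among the 17 called with all libraries. In that fit, chosen after seeing the data, 1 gene, Kcnt1, passed after adjustment (background 0.549%).

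The comparison of 4-PBA with CVST+Ligation asks what the compound changes in ligated mice. Here 7 of the 76 channel genes (9.21%) had an unadjusted p below 0.05, against 3.23% of all genes tested. Kcnj5, Kcne1l, Kcna5, Kcnn4 and Kcna4 were higher with 4-PBA (5 genes, background 1.81%), and Kcnab1 and Kcnk12 were lower (2 genes, background 1.42%). The groups did not overlap in 10 channel genes, 4 higher and 6 lower (background 7.73%, with 3.51% higher and 4.22% lower). The median log2 fold change was -0.11, beside -0.02 for all genes. Its sign was not stable, with 0.03 without CVST+Ligation replicate 1 and 0.01 without 4-PBA replicate 3. In edgeR 0 of the 76 passed after adjustment (background 0%), each with an adjusted p of 0.9998, and DESeq2 passed 0. Without CVST+Ligation replicate 2, 13 channel genes passed at the unadjusted level against 10% of all genes, and without 4-PBA replicate 2 there were 4 against 1.72%. The split of 5 higher and 2 lower varied with single libraries: it was 6 and 7 without CVST+Ligation replicate 2, 3 and 4 without CVST+Ligation replicate 3 (background 2.47%), 4 and 4 without CVST+Ligation replicate 1 (background 2.25%), 2 and 2 without 4-PBA replicate 2, 8 and 1 without 4-PBA replicate 1 (background 3.34%) and 5 and 0 without 4-PBA replicate 3 (background 3.99%), all at the unadjusted level in edgeR. With CVST+Ligation replicate 2 and CVST replicate 3 both left out, 16 channel genes passed at the unadjusted level against 13.7% of all genes tested, and 3 of the 16 were among the 7 called with all libraries.

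The comparison of 4-PBA with CVST joins ligation and the compound, and its CVST libraries are the same as those in the first comparison. In it 24 of the 76 channel genes (31.6%) had an unadjusted p below 0.05, against 15.4% of all genes tested. There were 8 higher (background 8.07%) and 16 lower (background 7.33%), and with scaling by total counts 12 higher and 14 lower. The largest positive log2 fold change was that of the inward rectifier Kcnj5, and the lower genes were led by the auxiliary subunit Kcnab1. The groups did not overlap in 30 channel genes, 11 higher and 19 lower (background 23.7%, with 12.3% higher and 11.5% lower). The median log2 fold change was -0.04, beside -0.01 for all genes, and it was 0.14 without CVST replicate 1 and -0.25 without CVST replicate 3. After adjustment 0 of the 76 passed 0.05 in edgeR (background 0.122%). The smallest edgeR adjusted p-values were 0.0527 for Kcnj5 and 0.0567 for Kcnab1, just outside the threshold. DESeq2 passed 9 (Kcnab1, Kcnh4, Kcnip3, Kcnj5, Kcnj11, Kcnk2, Kcnk4, Kcnmb4 and Kcnt1), against 4.8% of all genes. The unadjusted count was 14 without CVST replicate 1 (background 11.8%), 14 without CVST replicate 2 (background 14.2%) and 15 without 4-PBA replicate 2 (background 10.7%). In these fits 4, 5 and 3 genes were higher and 10, 9 and 12 lower. The split was 9 higher and 9 lower without 4-PBA replicate 3 (background 15.7%), 5 higher and 13 lower without 4-PBA replicate 1 (background 10.1%) and 4 higher and 21 lower without CVST replicate 3 (background 16.3%). Leaving out CVST replicate 3 gave 4 genes after adjustment (Kcnh1, Kcnab1, Kcnj11 and Kcnj5), against 1.08% of all genes. With CVST+Ligation replicate 2 and CVST replicate 3 both left out, 39 channel genes passed at the unadjusted level (28 lower, background 22.1%) and 17 after adjustment (15 lower, background 6.48%), with 22 of the 39 among the 24 called with all libraries. That choice was made after seeing the data, and leaving out distant libraries lowers the estimated spread by construction. When the farthest library of each group was left out, 4-PBA replicate 3 included, 38 and 17 passed, with backgrounds of 24.3% and 8.27%.

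**Figure D2:**
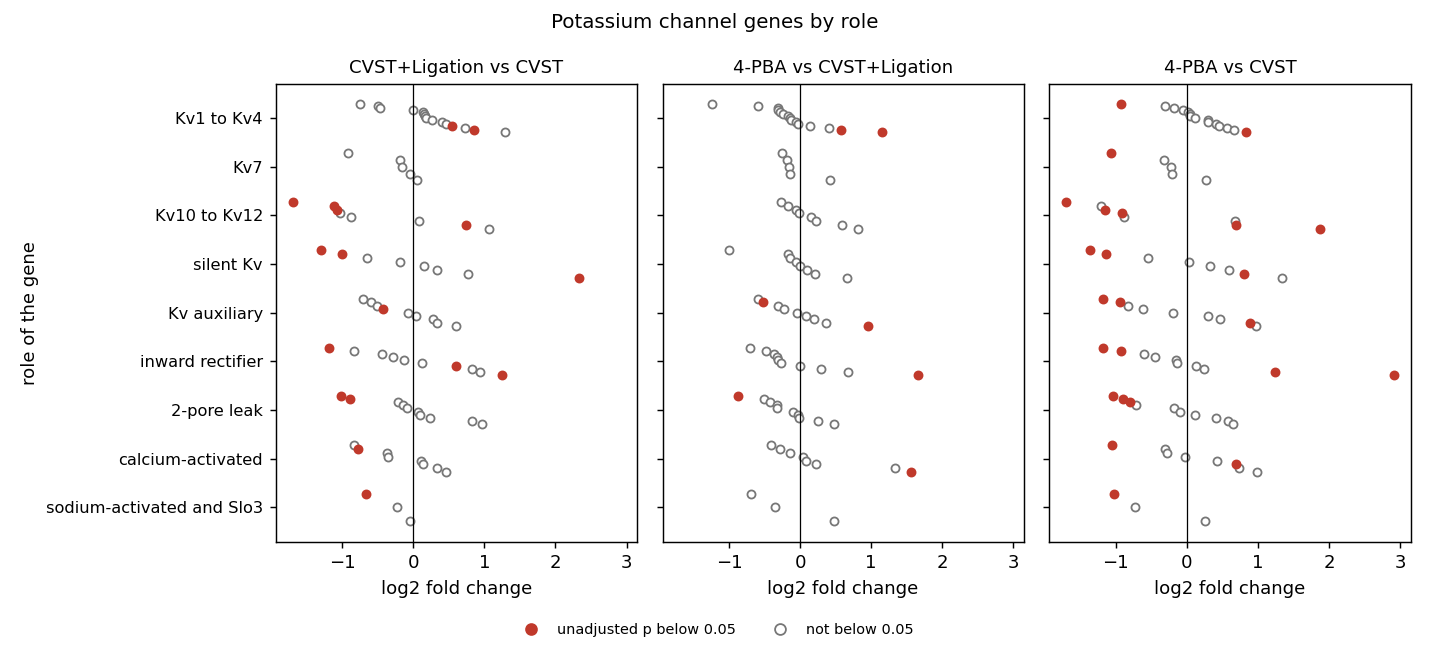
Log2 fold change of each of the 76 potassium channel genes in the 3 comparisons, by role, with filled points for an unadjusted p below 0.05 and open points for the others. The points lie on both sides of 0 in every role with more than 5 genes, and the largest value is that of Kcnj5 at 2.91 in the comparison of 4-PBA with CVST.

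Among the 15 Kv1 to Kv4 genes, which form delayed rectifier and A-type channels, 5 passed at an unadjusted p below 0.05 in at least 1 comparison. The same was true of 19.6% of all genes tested, which is the share to set beside the counts of each role. Lost calls are given beside each gene for single libraries left out, and the other alternatives are described in the section on processing. Kcnc4 encodes Kv3.4, a fast-inactivating channel of axons and terminals, and lies on chromosome 3, 107438303 to 107459552 (GRCm38). Its values in single libraries were 62.9, 54.3 and 55.3 CPM in the CVST group, 73.4, 103 and 75.7 in the CVST+Ligation group and 72.3, 70.3 and 70.3 in the 4-PBA group. The CVST libraries were the lowest, without overlap with either other group, and CVST+Ligation replicate 2 was the highest. The call of Kcnc4 after ligation was kept when any single library was left out. Kcnd3, which encodes the A-type channel Kv4.3, had 17.4, 14.8 and 11.8 CPM in the CVST group, 36.2, 17.4 and 26.1 in the CVST+Ligation group and 34.5, 26.3 and 17.8 in the 4-PBA group. Its log2 fold change was 0.86 (SE 0.31), or 0.56 without CVST+Ligation replicate 1, after ligation and 0.83 (SE 0.31) for 4-PBA against CVST. CVST+Ligation replicate 2 lay at the highest CVST library, and the call after ligation was lost without CVST replicate 3 or CVST+Ligation replicate 1. For 4-PBA against CVST the groups did not overlap, and the call was lost without CVST replicate 2, CVST replicate 3 or 4-PBA replicate 1. Kcnd3 overlaps an antisense gene, Kcnd3os, and whether the counts used the strand is not given in the sources used here, although the methods name an orientation mode for the alignment. The same uncertainty holds for Kcnq5, Kcnh1, Kcnh2, Kcnh3, Kcnh7, Kcns3, Kcnab1, Kcnab2, Kcnk1, Kcnk2 and Kcnmb4, which also overlap a gene on the other strand.

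Kcna5, which encodes the delayed rectifier Kv1.5, had 9.05, 3.99 and 5.37 CPM in the CVST group, 5.41, 4.02 and 3.65 in the CVST+Ligation group and 9.48, 15.1 and 4.61 in the 4-PBA group. Its log2 fold change for 4-PBA against CVST+Ligation was 1.16 (SE 0.45), or 0.69 without 4-PBA replicate 2, with 4-PBA replicates 1 and 2 high, while 4-PBA replicate 3 lay within the range of the CVST+Ligation libraries. The call was lost without CVST+Ligation replicate 2, CVST+Ligation replicate 3 or 4-PBA replicate 2. Kcna4, encoding the A-type channel Kv1.4, had 37.0, 30.3 and 34.1 CPM in the CVST group, 32.8, 15.6 and 25.1 in the CVST+Ligation group and 32.1, 41.3 and 35.9 in the 4-PBA group. The low value of CVST+Ligation replicate 2 stood out, and the log2 fold change for 4-PBA against CVST+Ligation was 0.57 (SE 0.25), or 0.35 without CVST+Ligation replicate 2, with the call lost without CVST+Ligation replicate 2, CVST+Ligation replicate 3, 4-PBA replicate 2 or 4-PBA replicate 3.

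The other 10 Kv1 to Kv4 genes passed in no comparison, with means from 1.13 to 84.5 FPKM. Among them Kcnc1, a Kv3 gene that serves fast-spiking neurons, had 109, 143 and 81.2 CPM in the CVST group, 106, 325 and 125 in the CVST+Ligation group and 185, 115 and 156 in the 4-PBA group. Its highest level was in CVST+Ligation replicate 2, and apart from that library the groups overlapped. The cerebellar markers were highest in the same library, and their part was not tested.

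Of the 5 Kv7 genes, Kcnq5, which encodes a subunit of the M-current that restrains repetitive firing, passed in 1 comparison. It had 92.5, 98.4 and 42.4 CPM in the CVST group, 55.8, 18.9 and 48.6 in the CVST+Ligation group and 49.7, 31.6 and 29.7 in the 4-PBA group. CVST replicates 1 and 2 were high and CVST replicate 3 lay within the range of the other groups, and the log2 fold change for 4-PBA against CVST was -1.07 (SE 0.43), with the call lost without CVST replicate 1, CVST replicate 2, 4-PBA replicate 2 or 4-PBA replicate 3. The other 4 Kv7 genes passed in no comparison.

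Kv10 to Kv12 genes (the Kcnh family of ether-a-go-go channels) held calls in both directions, in 6 of 8 genes. Kcnh4, a Kv12 subunit found mainly in the forebrain, had 11.6, 14.8 and 7.59 CPM in the CVST group, 2.85, 2.42 and 5.23 in the CVST+Ligation group and 4.28, 4.97 and 1.26 in the 4-PBA group. Every CVST library was higher than all others. The log2 fold changes were -1.69 (SE 0.51, edgeR adjusted p = 0.349) after ligation and -1.70 (SE 0.51, edgeR adjusted p = 0.158) for 4-PBA against CVST, and neither call was lost when any single library was left out. Kcnh7, an erg channel subunit, had 5.31, 6.43 and 3.96 CPM in the CVST group, 1.98, 1.65 and 3.87 in the CVST+Ligation group and 3.85, 2.44 and 2.10 in the 4-PBA group. Again the CVST libraries were the highest, by a narrow margin. Its log2 fold changes were -1.06 (SE 0.40) and -0.91 (SE 0.40), and the calls were lost without CVST replicate 1, CVST replicate 2, CVST+Ligation replicate 1 or CVST+Ligation replicate 2 in the first comparison and without CVST replicate 1, CVST replicate 2, 4-PBA replicate 2 or 4-PBA replicate 3 in the second. Kcnh5, encoding a Kv10 subunit, had 13.1, 25.8 and 7.87 CPM in the CVST group, 3.88, 10.3 and 7.60 in the CVST+Ligation group and 7.86, 10.2 and 7.20 in the 4-PBA group. CVST+Ligation replicate 2 lay inside the range of the CVST group, and the log2 fold change after ligation was -1.11 (SE 0.45), or -0.53 without CVST replicate 2, with the call lost without CVST replicate 2, CVST+Ligation replicate 1 or CVST+Ligation replicate 3.

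Kcnh1, the founding mammalian ether-a-go-go gene, had 106, 67.1 and 18.8 CPM in the CVST group, 43.6, 24.99 and 36.3 in the CVST+Ligation group and 30.3, 31.7 and 24.8 in the 4-PBA group. The CVST libraries spanned the range of all others, and the log2 fold change for 4-PBA against CVST, -1.15 (SE 0.49), or -0.57 without CVST replicate 1, was lost without CVST replicate 1, CVST replicate 2, 4-PBA replicate 1, 4-PBA replicate 2 or 4-PBA replicate 3. Kcnh2, which encodes the erg channel of cardiac repolarization, had 43.2, 36.1 and 34.6 CPM in the CVST group, 41.6, 99.4 and 49.7 in the CVST+Ligation group and 64.0, 69.2 and 50.9 in the 4-PBA group. All 4-PBA libraries were above all CVST libraries, and CVST+Ligation replicate 2 was the highest of the 9. This gave a log2 fold change of 0.74 (SE 0.30), or 0.27 without CVST+Ligation replicate 2, after ligation, with the call lost without CVST replicate 2, CVST replicate 3 or CVST+Ligation replicate 2, and 0.69 (SE 0.30) for 4-PBA against CVST, with the call lost without CVST replicate 2, CVST replicate 3, 4-PBA replicate 1 or 4-PBA replicate 2. Kcnh8, a low-level Kv12 subunit, had 0.722, 0.887 and 0.542 CPM in the CVST group, 0.455, 3.14 and 0.967 in the CVST+Ligation group and 1.95, 3.28 and 2.71 in the 4-PBA group. The 4-PBA libraries were above the CVST libraries, CVST+Ligation replicate 2 lay among the 4-PBA libraries, and the log2 fold change for 4-PBA against CVST was 1.87 (SE 0.64), with the call lost without CVST replicate 3. Kcnh3, the most abundant of the role per length, had 119.9, 164 and 129.5 CPM in the CVST group, 100.2, 13.8 and 87.8 in the CVST+Ligation group and 59.0, 68.5 and 52.6 in the 4-PBA group. Every CVST library was above every other and CVST+Ligation replicate 2 was far below the rest of its group, yet the gene passed in no comparison by edgeR. The cortical excitatory marker sum was also highest in the CVST libraries and lowest in CVST+Ligation replicate 2. Its part in the levels of channel genes was not tested.

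The silent Kv subunits form no channel alone and change Kv2 channels when they join them. Of 8, 4 passed in at least 1 comparison. Kcnv1 had 60.7, 68.3 and 59.8 CPM in the CVST group, 39.2, 6.65 and 30.7 in the CVST+Ligation group and 24.7, 27.9 and 21.2 in the 4-PBA group. Again CVST was the highest group without overlap, and CVST+Ligation replicate 2 was the lowest library, as in the cortical excitatory marker sum. The log2 fold changes were -1.30 (SE 0.48), or -0.85 without CVST+Ligation replicate 2, after ligation, with the call lost without CVST replicate 2, and -1.36 (SE 0.48) for 4-PBA against CVST, with the call lost without 4-PBA replicate 3. Kcns1 had 10.5, 19.0 and 9.98 CPM in the CVST group, 7.03, 4.28 and 8.40 in the CVST+Ligation group and 5.91, 8.42 and 3.62 in the 4-PBA group, again with the CVST libraries above all others. Its log2 fold changes were -0.999 (SE 0.39), or -0.63 without CVST replicate 2, with the call lost without CVST replicate 2, CVST+Ligation replicate 1 or CVST+Ligation replicate 2, and -1.14 (SE 0.39), with the call lost without CVST replicate 2 or 4-PBA replicate 3. Kcng4 had 2.97, 5.54 and 2.22 CPM in the CVST group, 8.02, 42.5 and 4.04 in the CVST+Ligation group and 11.97, 5.68 and 9.72 in the 4-PBA group. Its log2 fold change after ligation, 2.33 (SE 0.79), or 0.75 without CVST+Ligation replicate 2, was the largest of the 76 in that comparison with all libraries. CVST+Ligation replicate 2 was far above all other libraries, CVST+Ligation replicate 3 lay within the CVST range, and the call was lost without CVST replicate 1, CVST replicate 3 or CVST+Ligation replicate 2. Kcns3 had 9.86, 14.3 and 11.2 CPM in the CVST group, 14.2, 10.7 and 14.3 in the CVST+Ligation group and 17.2, 30.9 and 13.7 in the 4-PBA group, and 4-PBA replicate 2 stood highest while replicate 3 overlapped the CVST range. For 4-PBA against CVST its log2 fold change was 0.80 (SE 0.30), or 0.39 without 4-PBA replicate 2, with the call lost without CVST replicate 1, CVST replicate 3 or 4-PBA replicate 2. Kcng1, which passed in no comparison, had 12.2, 7.36 and 16.5 CPM in the CVST group, 35.3, 2.22 and 23.9 in the CVST+Ligation group and 28.7, 17.1 and 8.80 in the 4-PBA group, and CVST+Ligation replicate 2 was its lowest library while replicate 1 of the same group was its highest. Kcnf1, the most abundant of the role per length, had 71.3, 57.8 and 48.4 CPM in the CVST group, 54.6, 12.4 and 46.5 in the CVST+Ligation group and 48.4, 44.0 and 29.1 in the 4-PBA group, again lowest in CVST+Ligation replicate 2. The 4 silent subunits without a call had means of 1.94 to 30.8 FPKM.

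Of the 9 auxiliary genes, which encode Kv beta subunits, the calcium-binding KChIP proteins and the single-span Kcne proteins, 3 passed in at least 1 comparison. Kcnab1 encodes the beta subunit that gives Kv1 channels fast inactivation and lies on chromosome 3, 65109384 to 65378223. It had 152, 114 and 110.2 CPM in the CVST group, 88.9, 87.2 and 105 in the CVST+Ligation group and 67.6, 76.3 and 52.5 in the 4-PBA group. The CVST libraries were the highest, the 4-PBA libraries the lowest and the CVST+Ligation libraries lay between them, with no overlap between any pair of groups. The log2 fold changes were -0.42 (SE 0.18), or -0.26 without CVST replicate 1, after ligation, -0.52 (SE 0.18) for 4-PBA against CVST+Ligation and -0.94 (SE 0.18) for 4-PBA against CVST. The first call was lost without CVST replicate 1, CVST+Ligation replicate 1 or CVST+Ligation replicate 2. Total counts, a replicate block and either limma fit also ended it, as did leaving out CVST+Ligation replicate 2 and CVST replicate 3 together. The second call was lost without CVST+Ligation replicate 3 or 4-PBA replicate 3, and the third in none of the fits that left out 1 library. Kcnip3, which encodes KChIP3, a Kv4 partner that also binds DNA as DREAM, had 203, 106 and 123 CPM in the CVST group, 100.2, 65.1 and 121 in the CVST+Ligation group and 48.7, 65.6 and 76.0 in the 4-PBA group. The CVST and 4-PBA groups did not overlap, CVST replicate 1 was the highest, and the log2 fold change between these groups was -1.18 (SE 0.30, edgeR adjusted p = 0.115), kept when any single library was left out. Kcne1l had 1.10, 1.69 and 1.52 CPM in the CVST group, 1.32, 1.44 and 1.32 in the CVST+Ligation group and 2.11, 2.82 and 3.01 in the 4-PBA group. The 4-PBA libraries were above all 6 others. Its log2 fold changes were 0.96 (SE 0.32) against CVST+Ligation, with the call lost without 4-PBA replicate 3, and 0.88 (SE 0.32) against CVST, with the call lost without CVST replicate 1, 4-PBA replicate 2 or 4-PBA replicate 3. Kcnab2, the most abundant channel gene per length, had 332, 346 and 256 CPM in the CVST group, 359.8, 308 and 293 in the CVST+Ligation group and 276, 259 and 283 in the 4-PBA group and passed in no comparison. Its 4-PBA libraries were below every CVST+Ligation library, while both of these groups overlapped the CVST group. The 6 auxiliary genes without a call had means of 2.04 to 191 FPKM.

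Among the 10 inward rectifiers 5 passed in at least 1 comparison, and Kcnj5 was the only channel gene called as higher in all 3 in the model of all groups. Kcnj5 encodes GIRK4, a subunit of the G protein-gated channel, and lies on chromosome 9, 32314707 to 32344350. It had 4, 6 and 12 counts in the CVST group, 23, 13 and 21 in the CVST+Ligation group and 61, 62 and 58 in the 4-PBA group, which scale to 0.170, 0.266 and 0.651 CPM in the CVST group, 0.951, 0.670 and 0.923 in the CVST+Ligation group and 3.31, 2.61 and 2.21 in the 4-PBA group. The groups were ordered CVST, CVST+Ligation and 4-PBA without overlap between any pair, all at a low level. The log2 fold changes were 1.25 (SE 0.52), or 1.92 without CVST replicate 3, after ligation, 1.66 (SE 0.48) for 4-PBA against CVST+Ligation and 2.91 (SE 0.52) for 4-PBA against CVST. The first call was lost without CVST replicate 1, CVST replicate 2, CVST+Ligation replicate 1 or CVST+Ligation replicate 3. It was also lost when only the groups compared were fitted and with a replicate block. The other calls were kept in every fit that left out 1 library. The hypothalamic marker sum was also highest in the 4-PBA libraries, but its CVST and CVST+Ligation libraries overlapped. The thalamic marker sum was ordered CVST, CVST+Ligation and 4-PBA without overlap. Its margin was narrow, with 343 CPM in CVST+Ligation replicate 2 and 348 in 4-PBA replicate 2. The part of these markers in the level of Kcnj5 was not tested.

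Kcnj11, the pore of ATP-sensitive channels that couple metabolism to excitability, had 31.1, 32.7 and 19.5 CPM in the CVST group, 16.5, 23.3 and 21.7 in the CVST+Ligation group and 14.6, 13.5 and 16.0 in the 4-PBA group. The 4-PBA libraries were below all 6 others. Against CVST its log2 fold change was -0.92 (SE 0.23, edgeR adjusted p = 0.108), kept in every fit that left out 1 library. Kcnj4 (Kir2.3), a strong rectifier of forebrain neurons, had 148, 141 and 144 CPM in the CVST group, 80.1, 19.5 and 91.6 in the CVST+Ligation group and 56.4, 91.7 and 43.6 in the 4-PBA group. All CVST libraries were higher than the others, and CVST+Ligation replicate 2 was the lowest of the 9, as in the cortical excitatory marker sum. The log2 fold changes were -1.18 (SE 0.48), or -0.75 without CVST+Ligation replicate 2, with the call lost without CVST replicate 1, CVST replicate 2 or CVST replicate 3, and -1.18 (SE 0.48), with the call lost without CVST replicate 1, CVST replicate 2, CVST replicate 3, 4-PBA replicate 1 or 4-PBA replicate 3. Kcnj16, which pairs with Kir4.1 in glia, had 20.7, 25.6 and 20.9 CPM in the CVST group, 33.1, 44.8 and 23.9 in the CVST+Ligation group and 27.6, 31.9 and 19.8 in the 4-PBA group. Its groups overlapped, with a log2 fold change after ligation of 0.60 (SE 0.25), or 0.34 without CVST+Ligation replicate 2, with the call lost without CVST replicate 1, CVST replicate 3, CVST+Ligation replicate 1 or CVST+Ligation replicate 2. Kcnj14, another Kir2 channel, had 0.255, 0.798 and 0.488 CPM in the CVST group, 0.827, 1.13 and 1.01 in the CVST+Ligation group and 1.08, 1.39 and 1.18 in the 4-PBA group, and the CVST libraries were below all others. The log2 fold change for 4-PBA against CVST was 1.24 (SE 0.47), with the call lost without CVST replicate 1, CVST replicate 3, 4-PBA replicate 2 or 4-PBA replicate 3. The 5 inward rectifiers without a call had means of 4.50 to 35.5 FPKM.

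The 2-pore leak channels set the resting potential, and the 3 of 10 that passed were lower in each comparison where they passed. Kcnk4 encodes TRAAK, a mechanically gated leak channel, and lies on chromosome 19, 6923966 to 6934515. It had 9.35, 16.9 and 9.01 CPM in the CVST group, 5.46, 5.10 and 6.99 in the CVST+Ligation group and 5.42, 5.47 and 6.29 in the 4-PBA group. Its highest libraries were those of CVST, without overlap, while the CVST+Ligation and 4-PBA libraries shared 1 range. The log2 fold change for 4-PBA against CVST was -1.04 (SE 0.28, edgeR adjusted p = 0.130), or -0.66 without CVST replicate 2, beside -0.03 (SE 0.28) for 4-PBA against CVST+Ligation. Kcnk2, which encodes the related TREK-1, had 83.8, 74.1 and 53.4 CPM in the CVST group, 38.2, 29.6 and 46.5 in the CVST+Ligation group and 33.4, 52.5 and 27.6 in the 4-PBA group. Here too every CVST library was above every other, and the log2 fold changes were -0.89 (SE 0.27) and -0.90 (SE 0.27). The calls of Kcnk4 and Kcnk2 were kept in every fit that left out 1 library. Kcnk12 had 4.46, 4.08 and 4.29 CPM in the CVST group, 3.72, 6.60 and 3.21 in the CVST+Ligation group and 2.33, 2.78 and 2.25 in the 4-PBA group. The 4-PBA libraries were below all 6 others, with log2 fold changes of -0.87 (SE 0.31), or -0.49 without CVST+Ligation replicate 2, against CVST+Ligation, with the call lost without CVST+Ligation replicate 2, 4-PBA replicate 1 or 4-PBA replicate 3, and -0.80 (SE 0.31) against CVST, with the call lost without CVST replicate 1, CVST replicate 2, 4-PBA replicate 1 or 4-PBA replicate 3. The other 7 leak channels passed in no comparison and had means of 0.864 to 84.8 FPKM. Kcnk1 was the highest of these and had 75.5, 108 and 96.3 CPM in the CVST group, 66.7, 119.8 and 78.2 in the CVST+Ligation group and 83.3, 77.0 and 87.3 in the 4-PBA group, with overlap between the groups.

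Calcium-activated channels held calls in 3 of 8 genes. Kcnmb4, the beta subunit of neuronal BK channels, had 60.6, 52.7 and 74.7 CPM in the CVST group, 37.5, 22.4 and 50.2 in the CVST+Ligation group and 26.3, 29.7 and 34.4 in the 4-PBA group. Each CVST library was above all others, and the log2 fold changes were -0.77 (SE 0.27) after ligation, with the call lost without CVST replicate 3, and -1.06 (SE 0.27, edgeR adjusted p = 0.118) for 4-PBA against CVST, kept when any single library was left out. Kcnmb4 overlaps the antisense genes Kcnmb4os1 and Kcnmb4os2, so its reads may include theirs. Kcnn3 (SK3), a small-conductance channel, had 3.70, 4.08 and 4.18 CPM in the CVST group, 7.36, 3.50 and 5.54 in the CVST+Ligation group and 7.53, 6.06 and 5.72 in the 4-PBA group. The 4-PBA libraries were above the CVST libraries, and the log2 fold change of 0.69 (SE 0.29) was lost without CVST replicate 1, CVST replicate 2, CVST replicate 3, 4-PBA replicate 1 or 4-PBA replicate 2. Kcnn4, the intermediate-conductance channel known from blood and microglial cells, had 0.510, 0.532 and 0.759 CPM in the CVST group, 0.124, 0.258 and 0.615 in the CVST+Ligation group and 0.650, 1.56 and 0.762 in the 4-PBA group. With counts of 3 to 37 it lay near the floor, and its log2 fold change for 4-PBA against CVST+Ligation was 1.56 (SE 0.63), or 2.37 without CVST+Ligation replicate 3, with the call lost without CVST+Ligation replicate 1, CVST+Ligation replicate 2 or 4-PBA replicate 2. The 5 calcium-activated genes without a call had means of 2.57 to 20.6 FPKM.

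Kcnt1 (Slack), the most abundant of the 3 sodium-activated and Slo3 genes per length, had 134, 108 and 92.6 CPM in the CVST group, 54.2, 109 and 47.7 in the CVST+Ligation group and 58.4, 59.5 and 46.4 in the 4-PBA group. CVST+Ligation replicate 2 lay inside the CVST range, whereas the other CVST+Ligation libraries and all 4-PBA libraries were below it. The log2 fold change was -0.67 (SE 0.29), or -1.13 without CVST+Ligation replicate 2, after ligation, with the call lost without CVST replicate 1, CVST replicate 2, CVST+Ligation replicate 1 or CVST+Ligation replicate 3, and -1.03 (SE 0.29, edgeR adjusted p = 0.146) for 4-PBA against CVST, kept when any single library was left out. The other genes of this role, Kcnt2 and Kcnu1, had means of 1.48 to 2.69 FPKM and passed in no comparison. In all, 31 of the 76 channel genes passed in at least 1 comparison and 45 in none, while 19.6% of all genes tested passed in at least 1.

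**Figure D3:**
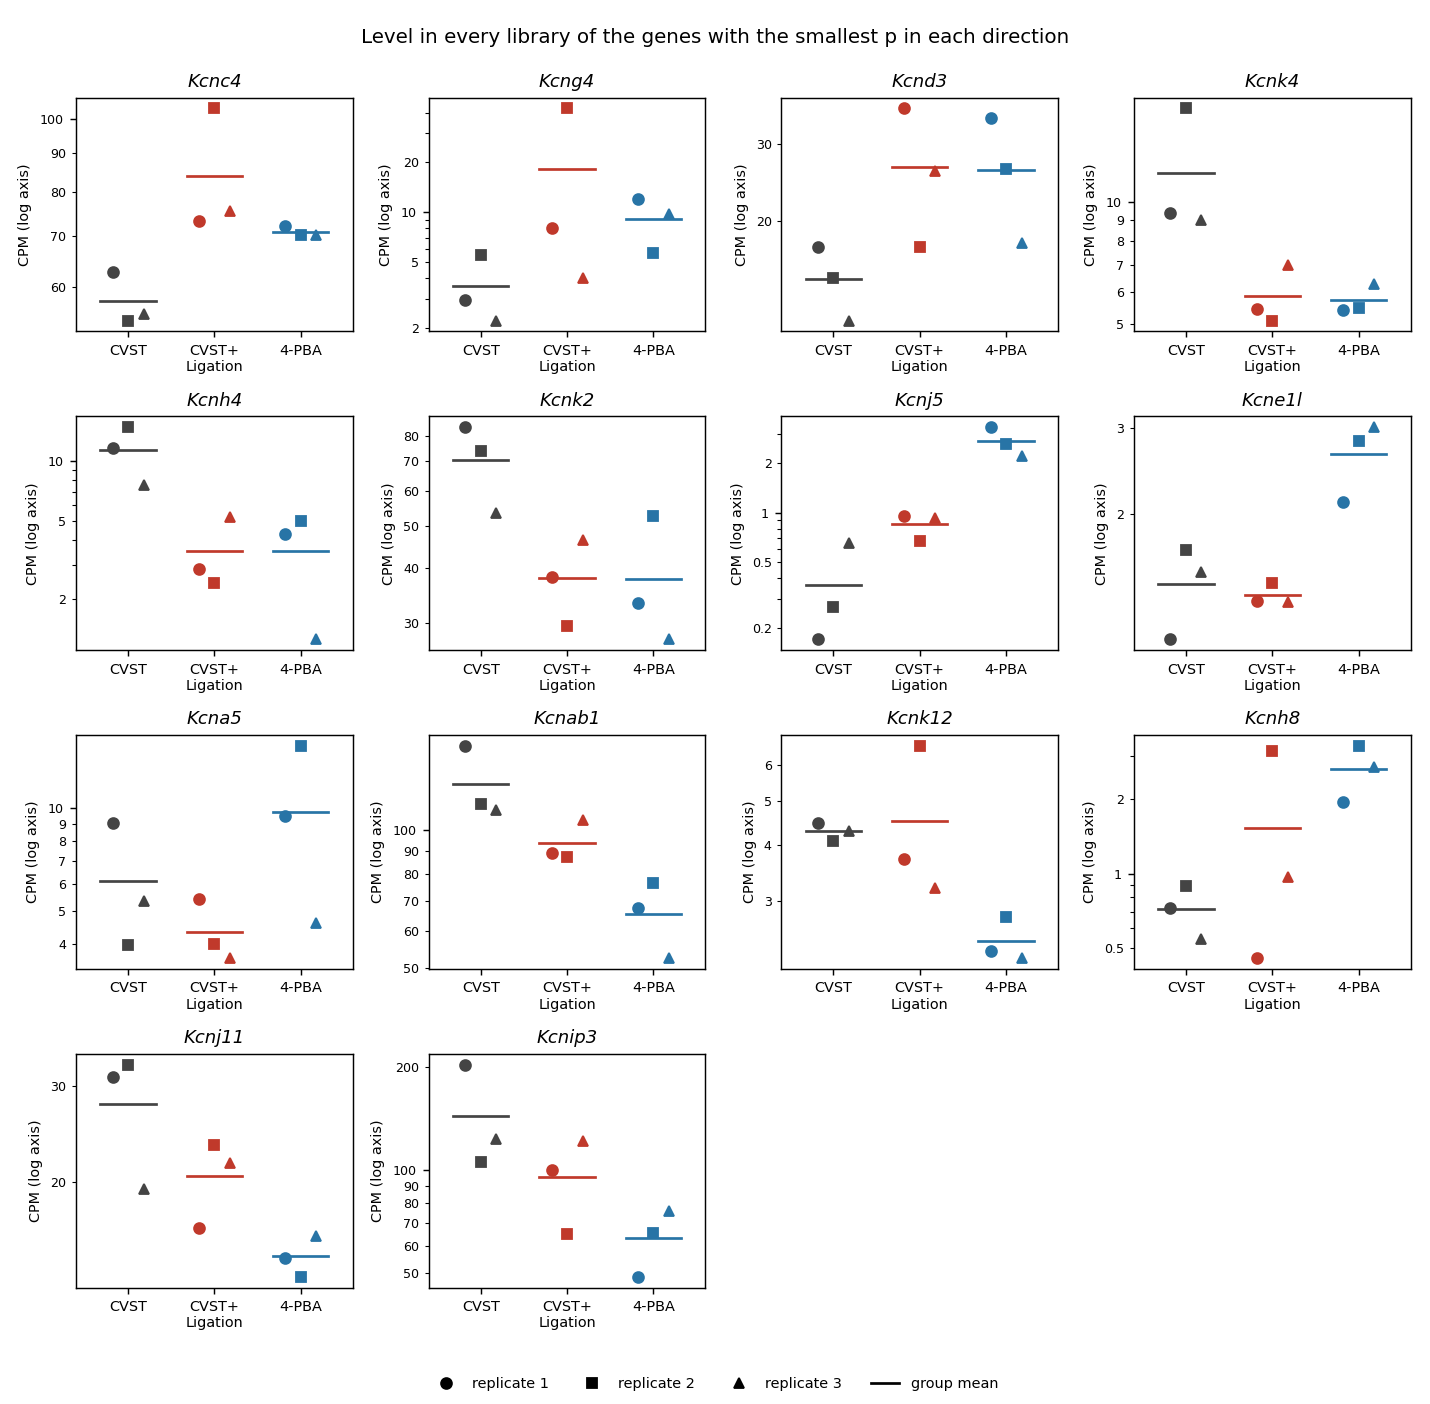
CPM (log axis) in every library of up to 3 channel genes per direction and comparison, taken in order of p, with a symbol for each replicate and a line at the group mean. Kcnj5 and Kcnab1 separate all groups, whereas Kcng4 is highest in CVST+Ligation replicate 2 and its 4-PBA libraries lie above its CVST libraries.

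Of 34 partner genes, which anchor, traffic or regulate these channels or belong to related families, 33 were tested. After ligation 3 passed at an unadjusted p below 0.05 (2 higher and 1 lower), 2 did for 4-PBA against CVST+Ligation (1 higher and 1 lower) and 7 for 4-PBA against CVST (3 higher and 4 lower). The shares of all genes tested were 9.64%, 3.23% and 15.4%. Dpp6, the Kv4 partner that speeds A-type channels and carries them to dendrites, had 303, 251 and 277 CPM in the CVST group, 445, 546 and 421 in the CVST+Ligation group and 471, 442 and 458 in the 4-PBA group. The CVST libraries were the lowest without overlap. Its log2 fold changes were 0.77 (SE 0.13, edgeR adjusted p = 0.167) and 0.72 (SE 0.13, edgeR adjusted p = 0.0545), and both calls were kept when any single library was left out. With DESeq2 the adjusted p was 9.57e-05 after ligation and 8.69e-05 for 4-PBA against CVST. Hcn4, a pacemaker channel of the related HCN family, had 6.71, 2.26 and 4.12 CPM in the CVST group, 7.77, 11.2 and 8.97 in the CVST+Ligation group and 12.9, 10.2 and 7.51 in the 4-PBA group, with the CVST libraries again below all others. Its log2 fold changes were 1.09 (SE 0.38), with the call lost without CVST replicate 3, and 1.22 (SE 0.38), kept in every such fit, with a DESeq2 adjusted p of 0.0369 for 4-PBA against CVST. No other partner passed 0.05 after adjustment in DESeq2, and none did in edgeR. Gnb5, a G protein beta subunit that works with Rgs7 on G protein-gated channels, had 149.8, 157 and 129 CPM in the CVST group, 102, 111 and 111 in the CVST+Ligation group and 112, 123 and 112 in the 4-PBA group. The CVST libraries were the highest, and the log2 fold changes were -0.43 (SE 0.12), kept in every such fit, and -0.32 (SE 0.12), with the call lost without CVST replicate 1, CVST replicate 2, 4-PBA replicate 1 or 4-PBA replicate 3.

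Abcc8, which encodes the sulfonylurea receptor that joins Kcnj11, had 24.0, 39.2 and 27.0 CPM in the CVST group, 23.8, 40.8 and 24.7 in the CVST+Ligation group and 20.9, 16.5 and 19.1 in the 4-PBA group. As for Kcnj11, the 4-PBA libraries were below all others. The log2 fold changes were -0.66 (SE 0.26), or -0.36 without CVST+Ligation replicate 2, against CVST+Ligation, with the call lost without CVST+Ligation replicate 2, 4-PBA replicate 2 or 4-PBA replicate 3, and -0.68 (SE 0.26), or -0.42 without CVST replicate 2, against CVST, with the call lost without CVST replicate 2, 4-PBA replicate 2 or 4-PBA replicate 3. Kcne2, which is abundant in choroid plexus, had 0.425, 0.843 and 0.325 CPM in the CVST group, 0.620, 0 and 0.352 in the CVST+Ligation group and 4.93, 1.39 and 0.648 in the 4-PBA group. Its log2 fold change for 4-PBA against CVST+Ligation was 2.77 (SE 1.01), or 1.61 without 4-PBA replicate 1, with 4-PBA replicate 1 far above the rest, and the call was lost without CVST+Ligation replicate 3 or 4-PBA replicate 1. The choroid plexus markers were highest in the same library, and their part was not tested. In the comparison of 4-PBA with CVST, Cntnap2, which clusters Kv1 channels beside nodes of Ranvier, had 80.4, 80.5 and 60.9 CPM in the CVST group, 96.5, 107 and 83.7 in the CVST+Ligation group and 125, 119.5 and 80.2 in the 4-PBA group, with a log2 fold change of 0.55 (SE 0.19), with the call lost without CVST replicate 3, 4-PBA replicate 1 or 4-PBA replicate 2. Dlg4 (PSD-95), a scaffold of Kv1 and inward rectifier channels, had 1063, 1034 and 1119.8 CPM in the CVST group, 1010.4, 611 and 1000.3 in the CVST+Ligation group and 792, 813 and 719.7 in the 4-PBA group. Rgs7 had 149, 139.7 and 158 CPM in the CVST group, 136, 79.9 and 148 in the CVST+Ligation group and 109, 104 and 109 in the 4-PBA group. For Cntnap2, 4-PBA replicate 3 lay within the CVST range, whereas for Dlg4 and Rgs7 every 4-PBA library was below every CVST library and CVST+Ligation replicate 2 was the lowest of all. Dlg4 and Rgs7 had log2 fold changes of -0.47 (SE 0.18) and -0.48 (SE 0.20). The calls of Dlg4 and Rgs7 were lost in all 6 fits that left out 1 library of the groups compared.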

How the data were processed

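The authors filtered reads with fastp, aligned them with HISAT2, assembled transcripts with StringTie and quantified with RSEM, per the methods and the submitters' processing notes, which name GRCm38 (mm10). Versions and the program that counted reads are not given in the sources used here, so genes that overlap on opposite strands or have near-identical copies have uncertain counts. The deposited counts are whole reads per gene symbol without normalization. The deposited expression matrix, described as TPM, holds FPKM values, because each equals the count divided by the library total and 1 length per gene.

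Groups came from the sample titles. Counts were fitted in R 4.3.3 with edgeR 4.0.16 (TMM, filterByExpr, 1 quasi-likelihood model of 3 groups), and p-values were adjusted by Benjamini-Hochberg over 14746 genes. The counts of genes called use an unadjusted p below 0.05 unless adjustment is stated. Log2 fold changes carry the standard error (SE) of the model. Positions are from GENCODE vM21. The alternatives were DESeq2 1.42.0, limma 3.58.1 on log2(FPKM + 1) and log2(FPKM + 0.1), other scalings and count filters, only the groups compared, a replicate block, a gene length offset and each library left out. Leaving out the libraries far from their groups was added after seeing the data. The edgeR, DESeq2 and limma fits were tested on simulated data. Plots used matplotlib 3.10.9.

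The members, lists and tests were chosen with earlier results of these data known. Genes named are those with an unadjusted p below 0.05 (in order of p, at most 10 in each direction of a comparison), the highest of each role per length, the 5 with the largest ratio of libraries, those nearest the count minimum, and at most 5 partners in each direction. Kcnq5 and Kcnh1, and calls of Kcnh7, Kcnj4, Kcnk12 and Kcnt1 past the limit of 10, were chosen after their values were seen. Some genes that this rule takes are not reported here.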

Additional observations from a re-analysis of the deposited data

How the results depend on the processing

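None of the 60 log2 fold changes called changed direction under an alternative. Over these calls of channel and partner genes, each library of the groups compared was left out in turn, and 226 of the 360 refitted calls stayed below an unadjusted p of 0.05, while 134 did not. Leaving out 1 library gave 11 to 19 channel genes for CVST+Ligation against CVST, 4 to 13 for 4-PBA against CVST+Ligation and 14 to 25 for 4-PBA against CVST, while the shares of all genes ran from 8.07 to 11.1%, from 1.72 to 10% and from 10.1 to 16.3%. After adjustment the ranges for channel genes were 0 to 0, 0 to 0 and 0 to 4. For partners at the unadjusted level they were 3 to 5, 1 to 6 and 3 to 6. Partners moved most without CVST+Ligation replicate 1 (5 in the first comparison), without CVST+Ligation replicate 2 (6 in the second), without CVST+Ligation replicate 3, 4-PBA replicate 1 or 4-PBA replicate 2 (1 in the second), and without 4-PBA replicate 1 (3) or CVST replicate 2, 4-PBA replicate 2 or 4-PBA replicate 3 (4) in the last.

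After adjustment the number of channel genes for 4-PBA against CVST was 0 in edgeR (background 0.122%), 9 in DESeq2 (4.8%), 5 with only the groups compared (1.61%), and 1 (Kcnj5) with all genes of at least 1 count (0.642%), with limma on log2(FPKM + 1) (0.59%), with limma on log2(FPKM + 0.1) (0.909%) and with the gene length offset (0.556%). For CVST+Ligation against CVST DESeq2 gave 1 (background 1.5%). At the unadjusted level, partners for 4-PBA against CVST+Ligation numbered 1 with either limma fit and 1 where each library had to hold 10 counts. Partners for 4-PBA against CVST numbered 4 with total counts at that level. Scaling by total counts moved the unadjusted split of channel genes for 4-PBA against CVST from 8 higher and 16 lower to 12 higher and 14 lower.

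Of the 60 calls, 7 were lost with total counts (Kcnt1 and Kcnab1 after ligation, and Kcnh1, Kcnh7, Abcc8, Rgs7 and Gnb5 for 4-PBA against CVST). With only the groups compared 7 were lost (Kcnt1, Kcnh2, Kcnj5 and Kcnh5 after ligation, Kcna4 and Kcnn4 for 4-PBA against CVST+Ligation, and Kcnh1 for 4-PBA against CVST), and with the gene length offset 2 (both calls of Kcnh2). Each limma fit lost 11, among them Kcnab1, Kcnh2 and Kcnh5 after ligation, both calls of Abcc8, and Kcnq5, Kcnh1, Rgs7 and Gnb5 for 4-PBA against CVST. Kcng4 after ligation was lost with log2(FPKM + 1) alone and Kcnh7 for 4-PBA against CVST with log2(FPKM + 0.1) alone among the limma fits. DESeq2 lost none of the 60.

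Leaving out CVST+Ligation replicate 2 and CVST replicate 3 together was chosen after seeing the data. It gave 24, 16 and 39 channel genes at the unadjusted level in the 3 comparisons, and 1, 0 and 17 after adjustment. At the unadjusted level 7, 8 and 13 partners passed. The shares of all genes were 12.4%, 13.7% and 22.1%, and 0.549%, 0% and 6.48% after adjustment. Leaving out the farthest library of each group gave 25, 19 and 38, then 1, 0 and 17, and 8, 9 and 11 partners, with shares of 14.3%, 14.7% and 24.3%, and of 1.23%, 0.00677% and 8.27%. By construction these fits keep the libraries nearest to their groups: the common biological coefficient of variation was 0.287 with 9 libraries, 0.237 with 7 and 0.203 with 6. Their larger counts are therefore no independent evidence, and the results with all libraries are the ones reported first.

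No label ties libraries of the same replicate number together. The correlations of deviations between them ran from -0.052 (4-PBA against CVST, replicate 2) to 0.324 (CVST+Ligation against CVST, replicate 2). Without a value expected for unpaired libraries, they do not decide whether the numbers pair the libraries. With the replicate block 15, 8 and 23 channel genes passed at the unadjusted level, and 0, 0 and 0 after adjustment. At the unadjusted level 4, 3 and 9 partners passed. The shares of all genes at the unadjusted level were 12%, 3.53% and 17.9%. With the block 7 of the 60 calls were not made, those of Kcnj5, Kcns1, Kcnab1 and Kcnj4 for CVST+Ligation against CVST and of Kcnh1, Kcnh7 and Kcnj4 for 4-PBA against CVST. A minimum of 5 or 20 counts would have kept 80 or 75 channel genes in place of 76. Depth limits genes near the floor such as Kcnj5, Kcnn4 and Kcnj14. The cause of these changes was not tested.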
